A study of Homo sapiens with 3 samples.

Results

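The HOX genes encode homeodomain transcription factors that lie in 4 clusters, HOXA, HOXB, HOXC and HOXD, and the order of the genes along each cluster follows their order of use along the body axis. Genes of like number in different clusters are paralogues, and the genes of high number, the posterior ones, are those known for patterning the urogenital tract, in which the prostate forms. Once a cell has taken a position, its HOX pattern is held by Trithorax proteins, which keep genes open, and Polycomb proteins, which keep them closed, and adult epithelia and the lines grown from them keep such a pattern. Noncoding RNAs are made from the same clusters, among them HOTTIP at the posterior end of HOXA, HOTAIRM1 at its anterior end and HOTAIR within HOXC.

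The members were chosen by symbol and were 38 coding genes of the 4 clusters with the noncoding RNAs HOTTIP, HOTAIR and HOTAIRM1 added. The rule left out HOXB13, a posterior gene of HOXB, and its level is not reported here. Every sum, share and ranking of HOX genes below therefore covers the members only. This gave 41 members out of 33423 genes listed in any of the 3 libraries. A row in at least 1 library existed for 34 members, and the other 7 were counted as 0 by the rule. The paralogues are called anterior at positions 1 to 3, central at 4 to 8 and posterior at 9 to 13.

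Single cells of 2 human prostate cancer lines were profiled by Drop-seq, in which droplets capture the 3′ ends of RNA and each captured molecule carries a unique molecular identifier (UMI). VCaP parental cells received 0.1% DMSO for 48 h, VCaP-ENZ48 cells received 10 µM enzalutamide for 48 h, and LNCaP-ENZ168 cells received 10 µM enzalutamide for 168 h. Enzalutamide is a hormone-pathway drug given against prostate cancer. Each condition was 1 library, so no test between conditions was possible, and every interval below is an exact 95% interval that covers counting error only.

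After the filter, 944 LNCaP-ENZ168, 997 VCaP parental and 947 VCaP-ENZ48 cells remained, with 6313283, 19515202 and 14301287 UMIs and medians of 5389, 17817 and 11224 UMIs per cell. Levels are CPM, the UMIs of a gene per 1000000 UMIs of the library. Since a molecule gives 1 UMI whatever its length, CPM values of different genes were set side by side without a length correction. With 0 UMIs, the upper limit set by 3 counts was 0.475 CPM in LNCaP-ENZ168, 0.154 CPM in VCaP parental and 0.210 CPM in VCaP-ENZ48. Summed luminal epithelial markers, 6 of 6 with UMIs, stood at 1109, 2465 and 4067 CPM in the same order, of which KLK2 gave 27.1, 1554 and 3053 CPM. The others did not share this order. KRT18 (460, 321 and 404 CPM), KLK3 (91.9, 7.64 and 10.9 CPM) and CDH1 (181, 56.7 and 65.7 CPM) were highest in LNCaP-ENZ168. KRT8 was highest in VCaP-ENZ48 and EPCAM in VCaP parental. ERG, an ETS factor that VCaP cells express from a gene fusion, was at 0 UMIs in LNCaP-ENZ168 and at 105 and 57.1 CPM in the VCaP libraries. Basal, immune, endothelial and erythroid marker sums stayed between 0 and 4.41 CPM in every library, and fibroblast markers were at 31.0 CPM in LNCaP-ENZ168, nearly all of it VIM, against 0.564 and 1.19 CPM. No barcode that passed the filter was shared between libraries, although each pair of libraries shared 1 barcode before it. Of the 1000 barcodes of a library, 860 in VCaP parental and 869 in VCaP-ENZ48 ended in an unread base (N), against 212 in LNCaP-ENZ168, which bears on what counts as a cell in every value per cell below.

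The 3 coding members with the most UMIs in VCaP, HOXA9, HOXA10 and HOXA13, all lie on the minus strand of chromosome 7. The 250 bases before 1 RefSeq start of each (GRCh38.p14) are shown because these genes carry most of the signal of the members in VCaP described below. Capitals mark the TATA box, searched as TATAAA, the box known as CCAAT by its letters, and the E-box, searched as CACGTG, on both strands, and the bases run 5′ to 3′ towards the start.
HOXA9, chr7:27165538-27165787: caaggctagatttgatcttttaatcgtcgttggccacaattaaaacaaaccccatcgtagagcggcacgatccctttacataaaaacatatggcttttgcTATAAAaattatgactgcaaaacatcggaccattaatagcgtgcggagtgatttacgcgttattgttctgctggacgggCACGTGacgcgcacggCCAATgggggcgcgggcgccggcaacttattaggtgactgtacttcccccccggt
HOXA10, chr7:27174321-27174570: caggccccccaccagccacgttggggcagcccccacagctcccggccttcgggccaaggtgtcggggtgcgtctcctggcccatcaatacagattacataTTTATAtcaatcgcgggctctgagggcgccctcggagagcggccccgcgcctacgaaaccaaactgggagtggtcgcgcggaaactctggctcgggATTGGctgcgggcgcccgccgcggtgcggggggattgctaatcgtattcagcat
HOXA13, chr7:27200092-27200341: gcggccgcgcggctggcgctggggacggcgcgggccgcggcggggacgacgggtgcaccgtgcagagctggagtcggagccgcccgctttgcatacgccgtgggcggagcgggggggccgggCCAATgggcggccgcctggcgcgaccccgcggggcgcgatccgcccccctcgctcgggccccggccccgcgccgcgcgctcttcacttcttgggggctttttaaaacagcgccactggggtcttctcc
HOXA9 and HOXA10 both held a TATAAA match at base 101 of their window, on opposite strands, and a CCAAT match at bases 196 and 197, and HOXA9 also held a CACGTG match at base 180. HOXA13 held only a CCAAT match, at base 123. The RefSeq start of HOTTIP, on the plus strand, lies 329 bases away from that of HOXA13, so that their upstream windows share 171 bases (chr7:27200171-27200341), the shared stretch including that CCAAT match. Among all 34943 RefSeq windows of 250 bases before a start, 32.04% held CCAAT and 10.8% held TATAAA. Of 27 windows belonging to the 21 members found in the RefSeq table, 18 held CCAAT, 5 held TATAAA, 8 held CACGTG (6.32% of all windows) and 3 held TGATNNAT, the letters bound by PBX and HOX proteins together (6.49% of all windows). These matches describe the letters only. HOXC4, HOXC6, HOXC9 and HOXC13 are named without sequence.

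The lines differed in which cluster supplied most UMIs of the coding members, HOXB13 not being counted. Coding members summed to 132 CPM in LNCaP-ENZ168, 295 CPM in VCaP parental and 257 CPM in VCaP-ENZ48. HOXA supplied 92.5% (91.8 to 93.2) of the coding HOX UMIs in VCaP parental and 90.2% (89.2 to 91.1) in VCaP-ENZ48, but 32.2% (29.0 to 35.5) in LNCaP-ENZ168. HOXC supplied 62.6% (59.2 to 65.9) in LNCaP-ENZ168 against 6.10% and 7.69% in the VCaP libraries. The intervals of the lines lie far apart for both clusters, and those of the VCaP libraries lie close together.

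**Figure D1:**
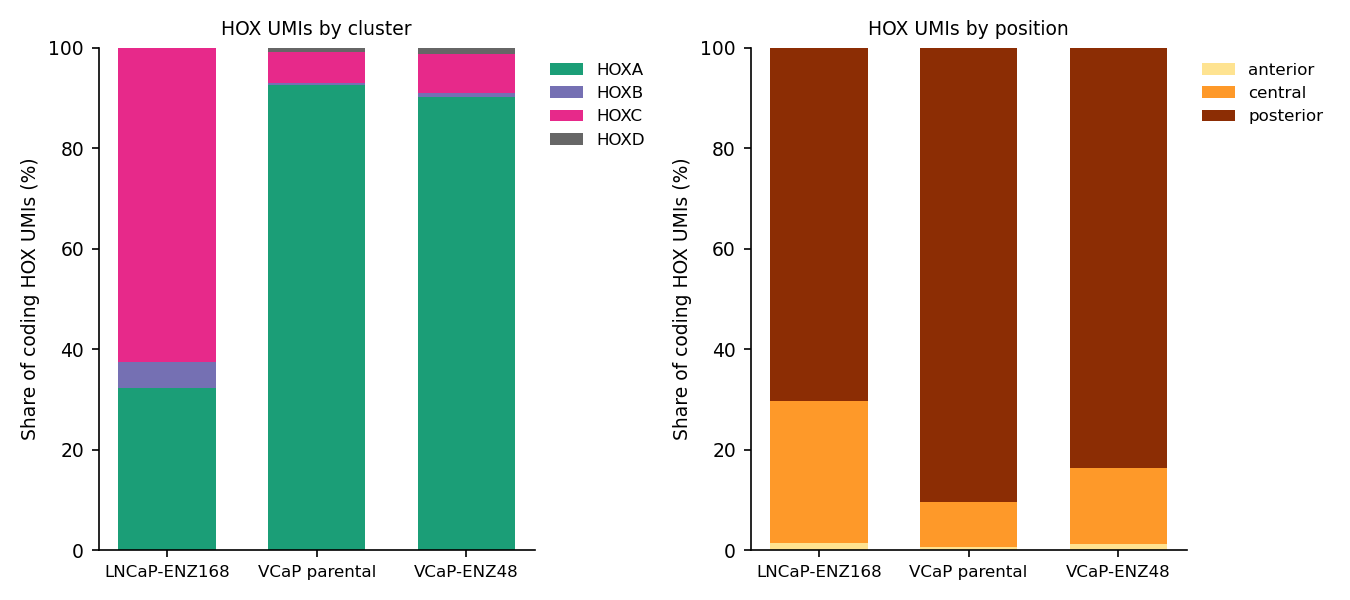
Share of coding HOX UMIs, HOXB13 left out (percent, y axis), in each library (x axis), by cluster on the left and by position on the right. HOXC fills 62.6% of the LNCaP-ENZ168 bar and HOXA 92.5% and 90.2% of the VCaP bars, while posterior genes fill most of every bar.

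Posterior genes gave most of the HOX UMIs in every library, 70.3% in LNCaP-ENZ168, 90.4% in VCaP parental and 83.6% in VCaP-ENZ48. Central genes gave 28.2%, 9.05% and 15.2%, and anterior genes 1.44%, 0.573% and 1.20%. By paralogue group, position 9 gave 46.1 CPM in LNCaP-ENZ168, 91.4 CPM in VCaP parental and 79.4 CPM in VCaP-ENZ48, and position 10 gave 35.2, 136 and 85.4 CPM. The position 9 signal came from different genes in the lines: HOXC9 made up nearly all of it in LNCaP-ENZ168 and HOXA9 in VCaP. Position 6 differed less, at 26.8, 14.96 and 21.5 CPM, with HOXC6 leading in LNCaP-ENZ168 and HOXC6 and HOXA6 sharing it in VCaP.

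**Figure D2:**
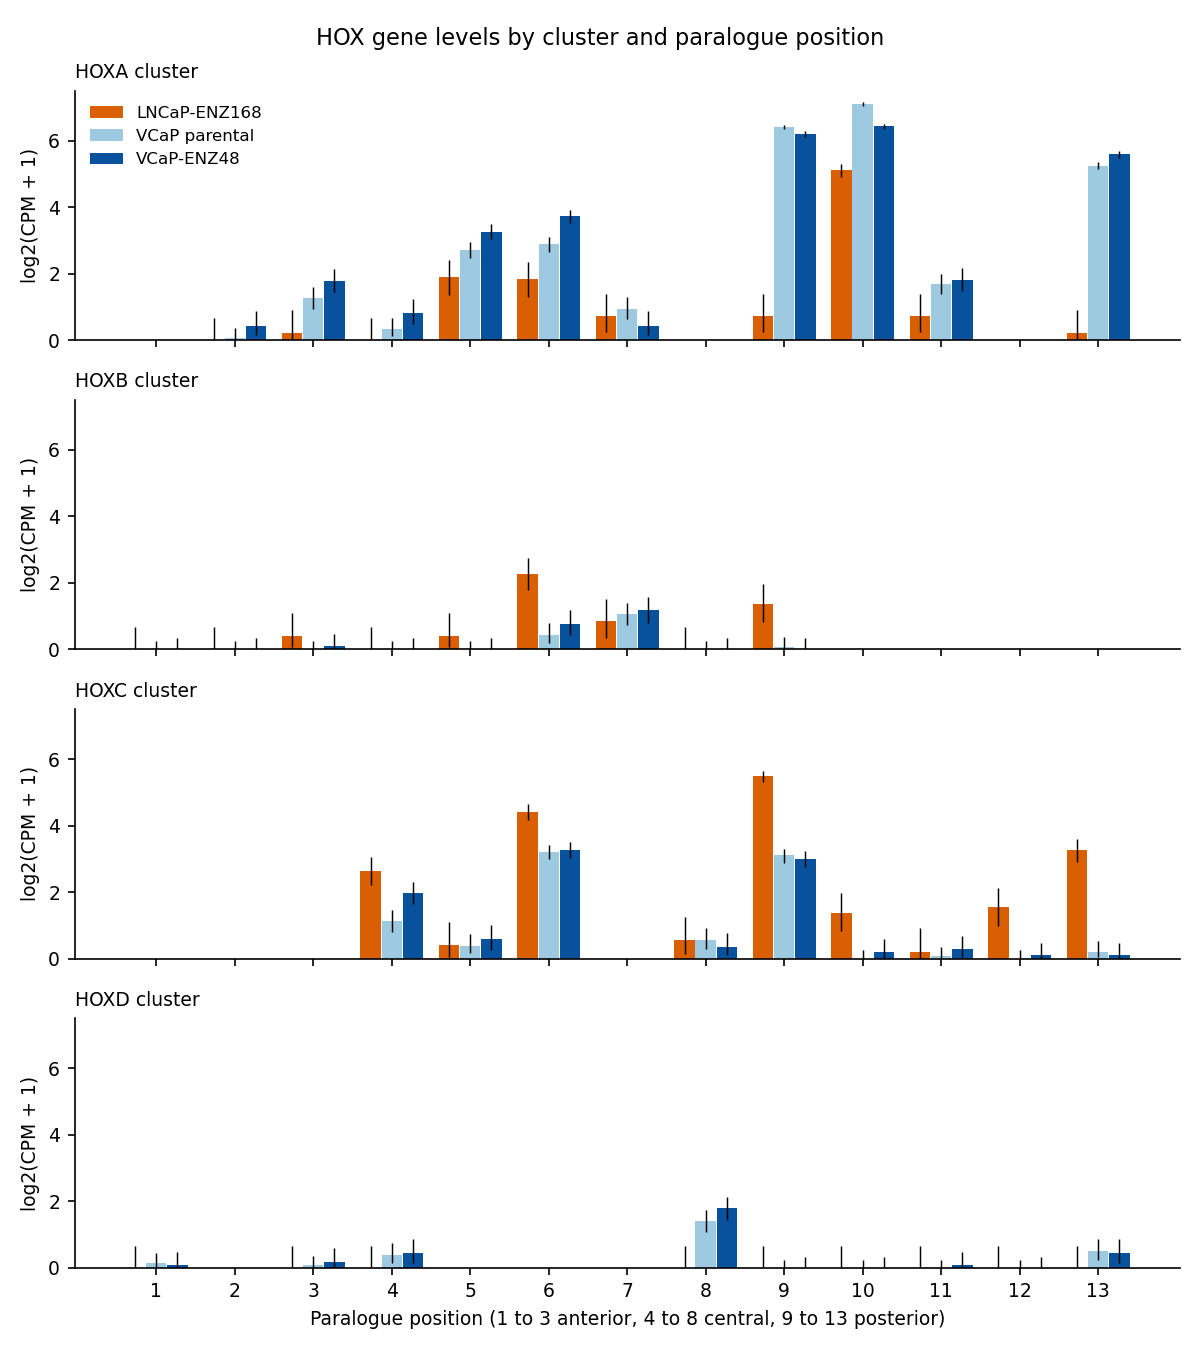
Levels of coding members as log2(CPM + 1) (y axis, starting at 0) against paralogue position (x axis), with 1 panel per cluster, 1 bar per library and exact 95% Poisson intervals as lines. In the HOXA panel the bars at positions 9 and 13 are tall in VCaP and near 0 in LNCaP-ENZ168, and in the HOXC panel the LNCaP-ENZ168 bars are the tallest at positions 6, 9 and 13.

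Of the 41 members, 24 had UMIs in both lines, 9 in VCaP alone, 1 in LNCaP alone and 7 in none. VCaP had 2 libraries, of 19515202 and 14301287 UMIs, against 6313283 UMIs in LNCaP-ENZ168, which favours detection in VCaP for any gene. The same split over all genes is not given here, so these counts are not read as a result about the members. The VCaP-only members were HOXA2, HOXA4, HOTTIP, HOXD1, HOXD3, HOXD4, HOXD8, HOXD11 and HOXD13, and HOXB5 with 2 UMIs was the LNCaP-only one. HOXB1, HOXB2, HOXB4, HOXB8, HOXD9, HOXD10 and HOXD12 had no UMI in any kept cell. Of the VCaP-only members, 6 stood below the LNCaP-ENZ168 limit of 0.475 CPM in both VCaP libraries, so that a difference between the lines was not detectable for them at this depth. HOXA4, HOXD8 and HOTTIP were above it in at least 1 VCaP library.

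The HOXA cluster (chr7:27092993-27200091) was the main source of member UMIs in VCaP. HOXA10, which patterns the reproductive tract, stood at 33.6 CPM (29.2 to 38.4) in LNCaP-ENZ168, 136 CPM (131 to 141) in VCaP parental and 85.3 CPM (80.6 to 90.2) in VCaP-ENZ48, from 212, 2648 and 1220 UMIs. The 3 intervals do not overlap, and HOXA10 was the HOXA gene with the highest level in each library. It made up 79.1% (73.7 to 83.8) of the HOXA coding UMIs in LNCaP-ENZ168, 49.7% (48.3 to 51.0) in VCaP parental and 36.8% (35.1 to 38.4) in VCaP-ENZ48. HOXA9, a posterior factor best known from leukaemias, stood at 0.634 CPM in LNCaP-ENZ168, 83.8 CPM (79.8 to 87.9) in VCaP parental and 72.4 CPM (68.0 to 76.9) in VCaP-ENZ48. Its 4 UMIs in LNCaP-ENZ168 stand beside 1635 and 1035 in VCaP. Exons of other annotated genes on the same strand share 15.9% of the exonic bases of HOXA9 and 9.93% of those of HOXA10, so the split of reads among them is uncertain. Exons of HOXA10-AS on the other strand cover 13.9% of the exonic bases of HOXA9 and 16.4% of those of HOXA10.

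HOXA13, the last HOXA gene and a regulator of limb and urogenital development (chr7:27193503-27200091), had 1 UMI in LNCaP-ENZ168 (0.158 CPM), 717 in VCaP parental (36.7 CPM, 34.1 to 39.5) and 674 in VCaP-ENZ48 (47.1 CPM, 43.6 to 50.8). HOTTIP, the noncoding RNA known to recruit the WDR5 and MLL activating complex to the posterior HOXA genes, lies at chr7:27198575-27207259 on the opposite strand. It had 0 UMIs in LNCaP-ENZ168, 416 in VCaP parental (21.3 CPM, 19.3 to 23.5) and 646 in VCaP-ENZ48 (45.2 CPM, 41.8 to 48.8). Both RNAs of this end of the cluster were thus at or under the limit of detection in LNCaP-ENZ168 and well above it in both VCaP libraries. HOTTIP formed 36.7% (33.9 to 39.6) of the summed HOXA13 and HOTTIP UMIs in VCaP parental and 48.9% (46.2 to 51.7) in VCaP-ENZ48. That share does not depend on how libraries are scaled. The genes overlap on opposite strands, with 1.70% of the exonic bases of HOXA13 and 1.69% of those of HOTTIP under exons of the other strand, and how counting used strand is not given in the sources used here. Exons of other annotated genes on the same strand share 18.4% of the exonic bases of HOTTIP.

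The central genes HOXA5 and HOXA6 were lower in level. HOXA5, a regulator of lung and axial development, stood at 2.69, 5.59 and 8.60 CPM in LNCaP-ENZ168 and in the parental and treated VCaP cells. HOXA6 stood at 2.53, 6.35 and 12.2 CPM in the same order, and 39.3% of its exonic bases are covered by exons of the other strand. HOTAIRM1, a myeloid noncoding RNA (chr7:27095647-27100265), was the only HOXA member of at least 5 CPM whose level was highest in LNCaP-ENZ168, at 8.08 CPM against 3.38 and 5.80 CPM. Of the exonic bases of HOTAIRM1, 43.2% are shared with other annotated genes of the same strand. HOXA2, HOXA3, HOXA4, HOXA7 and HOXA11 ranged from 0 to 2.52 CPM over the 3 libraries.

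The HOXC cluster (chr12:53938831-54056030) held the HOX member of the highest level in LNCaP-ENZ168, HOXC9, with HOXA10 next. HOXC9, a posterior factor of spinal motor neuron patterning, stood at 43.9 CPM (38.9 to 49.4) there, 7.58 CPM (6.41 to 8.91) in VCaP parental and 6.99 CPM (5.69 to 8.50) in VCaP-ENZ48. HOXC6, a gene of the central group often measured in prostate tumours, stood at 20.4 CPM (17.1 to 24.3), 8.25 CPM (7.02 to 9.63) and 8.60 CPM (7.15 to 10.3). HOXC13, known for hair and nail formation, had 54 UMIs in LNCaP-ENZ168 (8.55 CPM), 3 in VCaP parental and 1 in VCaP-ENZ48. HOXC4 stood at 5.23, 1.18 and 2.94 CPM, with 17.5% of its exonic bases shared with other genes of the same strand. That share was 16.1% for HOXC6. For HOXC9, HOXC6 and HOXC13 the LNCaP-ENZ168 interval lies above both VCaP intervals, which overlap each other. HOTAIR, which acts with Polycomb repressive complex 2 in other cells, had 1 UMI in each library. HOXC10 and HOXC12, named here after their values were seen, had 10 and 12 UMIs in LNCaP-ENZ168 and 0 to 2 in either VCaP library.

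The members of HOXB, which leave out HOXB13, and those of HOXD gave few UMIs. The HOXB members (chr17:48528526-48633572) summed to 6.81, 1.49 and 2.03 CPM in LNCaP-ENZ168 and in the parental and treated VCaP cells. HOXB6 and HOXB9, chosen after their values were seen, had 24 and 10 UMIs in LNCaP-ENZ168, 7 and 1 in VCaP parental and 10 and 0 in VCaP-ENZ48. HOXB7 had 5, 21 and 18. The HOXD members (chr2:176092721-176190907) summed to 0 UMIs in LNCaP-ENZ168 and 49 in each VCaP library, or 2.51 and 3.43 CPM, of which HOXD8 gave 32 and 35. The LNCaP-ENZ168 limit of 0.475 CPM lies below both VCaP sums.

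VCaP-ENZ48 against VCaP parental asks how the HOX pattern of 1 line stood after 48 h of enzalutamide. The HOXA cluster was lower with the drug, with a log2 ratio of CPM + 1 of -0.23 (-0.30 to -0.17), and its genes did not move together. HOXA10 was lower by a log2 ratio of -0.66 (-0.77 to -0.57) and HOXA9 by -0.21 (-0.32 to -0.10). HOXA13 was higher at 0.35 (0.21 to 0.51), HOXA6 at 0.85 (0.61 to 1.29), HOXA5 at 0.54 (0.24 to 1.01) and HOTAIRM1 at 0.63 (0.30 to 1.27). HOTTIP was higher at 1.05 (0.90 to 1.26), or 2.12-fold in CPM without the added 1.

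These ratios are read against the whole table, in which 15105 genes reached a mean of 1 CPM over both libraries and had a median ratio of 0.17. Against that median HOXA13 stood only 0.19 higher, HOXA6 0.68 higher, HOTTIP 0.88 higher and HOXA10 at -0.83. With TMM scaling, the median of the same genes moved by -0.25, HOXA13 came to 0.07 and HOTTIP to 0.77. Of the 14 members that reached the mean of 1 CPM, 1 was past 2-fold higher, HOTTIP, where 12.8% of all genes were, and 0 were past 2-fold lower, where 4.63% were. Under TMM scaling 1340 genes were past 2-fold higher and 1319 lower, against 1937 and 699, and HOTTIP was no longer among the first. A share of 1 in 14 is near the background.

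**Figure D3:**
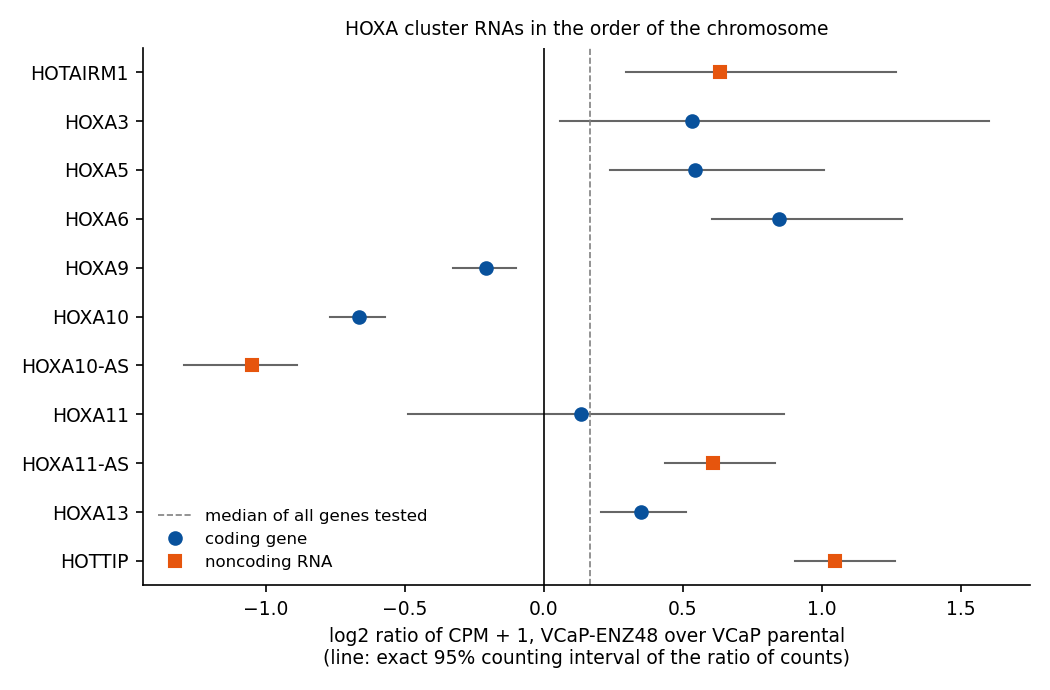
The log2 ratio of CPM + 1 of VCaP-ENZ48 over VCaP parental (x axis) for RNAs of the HOXA cluster in chromosome order (y axis), with exact 95% counting intervals as lines, circles for coding genes and squares for noncoding RNAs. HOXA9, HOXA10 and HOXA10-AS sit left of 0, with RNAs on both sides of them, from HOTAIRM1 at 0.63 to HOTTIP at 1.05, to the right.

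By position within HOXA, the central genes had a log2 ratio of 0.70 (0.50 to 0.99) and the posterior genes -0.32 (-0.38 to -0.25), so that central genes went from 4.45% to 8.53% of the coding HOX UMIs. Outside HOXA, the cluster sums of the VCaP libraries had intervals that include 0. HOXC gave 18.0 CPM in VCaP parental and 19.8 CPM in VCaP-ENZ48, a log2 ratio of 0.13 (-0.09 to 0.37) that became -0.15 with TMM scaling. HOXB at 0.28 (-0.35 to 1.24) and HOXD at 0.33 (-0.15 to 1.05) rested on 29 and 49 UMIs in each library, and the upper ends of both intervals lie past 2-fold. Within HOXC, HOXC9 at -0.10 (-0.50 to 0.26) and HOXC6 at 0.05 (-0.29 to 0.41) could not be told from equal at this depth. HOXC4 was higher in VCaP-ENZ48, with 42 UMIs against 23 and a log2 ratio of 0.85 (0.55 to 2.12). Without the added 1 CPM this was 2.49-fold (1.46 to 4.34). The interval of HOTTIP on that scale, 1.87 to 2.40, lies within that of HOXC4, so these folds could not be ranked at this depth.

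Depth and cell cycle also differed between the VCaP libraries. UMIs of S and G2M phase genes made up 0.505% and 2.46% of all UMIs in the less and the more cycling cells of VCaP parental, split at the library's median, and 0.146% and 0.448% in those of VCaP-ENZ48. HOXA10 was higher in the more cycling cells of every library, at 155 against 115 CPM in VCaP parental, 98.4 against 73.9 CPM in VCaP-ENZ48 and 39.5 against 28.1 CPM in LNCaP-ENZ168. The HOXA9 level went the other way in VCaP parental, at 73.8 CPM in the more cycling cells against 94.4 CPM. In VCaP-ENZ48 it did not, at 75.2 CPM (68.8 to 82.1) against 69.9 CPM (64.1 to 76.1), and LNCaP-ENZ168 had 3 and 1 HOXA9 UMIs. HOTTIP was at 18.8 against 23.9 CPM in VCaP parental and at 44.6 against 45.7 CPM in VCaP-ENZ48. Within the less cycling cells alone, the log2 ratio of VCaP-ENZ48 over VCaP parental was -0.64 for HOXA10, 0.90 for HOTTIP, which is under 2-fold, -0.43 for HOXA9, 0.59 for HOXA6 and 0.09 for HOXA13. These less cycling cells were not matched between the libraries, since their S and G2M share was 0.505% in VCaP parental and 0.146% in VCaP-ENZ48. The part of the cell cycle in the differences was therefore not tested for any of these genes.

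Comparing LNCaP-ENZ168 with VCaP-ENZ48 sets the lines side by side under the same drug and dose. Line, time on the drug and library preparation differ together and cannot be told apart, and no untreated LNCaP library was analysed here. HOXA was lower in LNCaP-ENZ168, with a log2 ratio of CPM + 1 of -2.42 (-2.64 to -2.27), while HOXC was higher at 2.01 (1.85 to 2.27) and HOXB at 1.37 (1.04 to 2.48). As folds of CPM, without the added 1 CPM, HOXA was 5.47-fold lower and HOXC 4.17-fold higher, and the folds below are on that scale. HOXD was 7.21-fold lower with its 0 UMIs set at 3 counts, and the interval of its ratio of counts ended at a log2 of -2.50. VCaP parental had HOXA at 273 CPM, HOXC at 18.0 CPM and HOXB at 1.49 CPM, on the VCaP-ENZ48 side of LNCaP-ENZ168 in each case.

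Large differences lay at the posterior HOXA end. HOXA9 was 114-fold lower in LNCaP-ENZ168 (44.5 to 420), and HOXA13 with its 1 UMI was lower by a ratio between 53.2 and 11769. HOTTIP was at least 77.1-fold lower by its interval, and 95.1-fold lower with its 0 UMIs set at 3 counts. The neighbouring HOXA10 was 2.54-fold lower (2.19 to 2.95), HOXA6 4.83-fold (2.89 to 8.63) and HOXA5 3.19-fold (1.92 to 5.66). On the HOXC side, HOXC9 was 6.27-fold higher in LNCaP-ENZ168, with a log2 ratio of CPM + 1 of 2.49 (2.31 to 2.99), and HOXC6 was 2.38-fold higher, with one of 1.16 (0.88 to 1.62). HOXC13 had 54 UMIs against 1, a ratio of CPM between 21.0 and 4920. Within HOXC the posterior genes differed more, at 7.49-fold, than the central ones, at 2.15-fold. HOTAIRM1 had a log2 ratio of 0.42 (-0.06 to 1.00), which became -0.05 with TMM scaling.

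Among the 16262 genes that reached a mean of 1 CPM, the median log2 ratio was 0.50, and 32.1% were past 2-fold higher in LNCaP-ENZ168 and 18.9% past 2-fold lower. Of 16 members tested, 4 were higher (HOXB6, HOXC6, HOXC9 and HOXC13) and 9 lower, HOXD8, HOTTIP and 7 HOXA genes. The lower share is above its background and the higher share below it, but members such as HOTTIP and HOXC13 reached the mean of 1 CPM through the library where they are high and had to differ. TMM scaling moved the median by -0.47 and turned 5224 genes higher and 3070 lower into 2828 and 3964. The members past 2-fold lower were the same 9 by name under it, and HOXC6 left the higher ones.

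The share of cells with a UMI followed the same lines. With each cell thinned to 2000 UMIs, which left out 1 LNCaP-ENZ168 cell and 30 VCaP-ENZ48 cells, a UMI of a coding HOXA gene was found in 7.42% (5.83 to 9.29) of LNCaP-ENZ168 cells, 42.9% (39.8 to 46.1) of VCaP parental cells and 35.6% (32.4 to 38.8) of VCaP-ENZ48 cells. Unthinned, the shares were 21.8%, 96.6% and 76.7%. A HOXC UMI was found in 15.2% (12.9 to 17.6), 3.61% and 3.05% of thinned cells. HOXA UMIs were thus spread over most VCaP parental cells at full depth. No cell type that should lack these genes exists within a library of 1 line, so the share due to free RNA could not be measured.

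**Figure D4:**
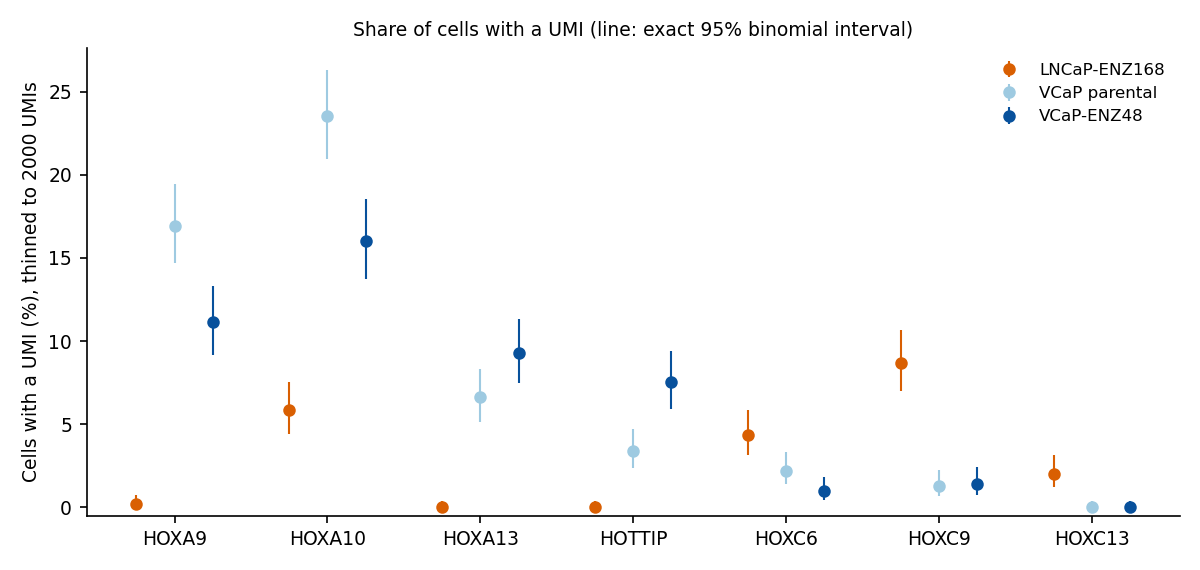
Share of cells with a UMI of the leading members (percent, y axis) after thinning each cell to 2000 UMIs, by member (x axis) and library (colour), with exact 95% binomial intervals as lines. HOXA10 stands at 23.6% in VCaP parental and 16.0% in VCaP-ENZ48, HOTTIP stands at 3.41% and 7.52%, and HOXC9 is highest in LNCaP-ENZ168 at 8.70%.

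For HOXA10 the thinned shares were 5.83% in LNCaP-ENZ168, 23.6% (21.0 to 26.3) in VCaP parental and 16.0% (13.7 to 18.6) in VCaP-ENZ48, and unthinned 17.3%, 85.1% and 54.6%. HOTTIP was found in 3.41% (2.37 to 4.73) of thinned VCaP parental cells and 7.52% (5.90 to 9.43) of VCaP-ENZ48 cells, and in 0 of 943 LNCaP-ENZ168 cells, where 3 counts would allow a share of up to 0.318% of cells with a UMI at this depth, which does not limit the share of cells expressing it. HOXC9 was found in 8.70% (6.98 to 10.7) of LNCaP-ENZ168 cells against 1.30% and 1.42%. At full depth, cells of VCaP parental had a median of 5 coding HOX UMIs from 3 genes, cells of VCaP-ENZ48 2 UMIs from 2 genes, and cells of LNCaP-ENZ168 1 UMI from 1 gene. HOXA9 and HOXA10 were found together in 596 of 997 VCaP parental cells and in 314 of 947 VCaP-ENZ48 cells, and HOXA13 and HOTTIP in 173 and 193 cells, with depth shared by both genes of a pair.

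Other noncoding RNAs of the clusters were set beside the members from a list of 16, of which 12 had a row. HOXA10-AS, antisense to HOXA10, stood at 1.43, 39.9 and 18.7 CPM in LNCaP-ENZ168 and in the parental and treated VCaP cells. It was the only one of 2 tested that was past 2-fold lower in VCaP-ENZ48, at a log2 ratio of -1.05, where 4.63% of all genes were. HOXA11-AS, antisense to HOXA11, stood at 3.96, 20.4 and 31.7 CPM, with 9.28 UMIs per HOXA11 UMI in VCaP parental and 12.6 in VCaP-ENZ48. Exons of the other strand cover 27.2% of the exonic bases of HOXA11, 16.4% of those of HOXA10 and 7.30% of those of HOXC13. Reads from a gene and its antisense partner cannot be told apart there unless strand was counted. HOXC13-AS had 47 UMIs in LNCaP-ENZ168, 0 in VCaP parental and 1 in VCaP-ENZ48, beside the 54, 3 and 1 of HOXC13. HOXA10-AS and HOXA11-AS were higher in both VCaP libraries than in LNCaP-ENZ168, as were HOXA10 and HOXA11. HOXC13-AS and HOXC13 were highest in LNCaP-ENZ168. The levels of a pair were not in proportion. HOXA10-AS formed 4.07% of the summed HOXA10 and HOXA10-AS UMIs in LNCaP-ENZ168, against 22.7% in VCaP parental and 18.0% in VCaP-ENZ48.

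HOX proteins bind DNA with TALE cofactors of the PBX, MEIS, PKNOX and TGIF families. Of 11 such genes, 6 were tested within VCaP, with 1 past 2-fold higher in VCaP-ENZ48 (MEIS3, named after its values were seen, from 7 to 29 UMIs) and 0 lower. Of all genes, 12.8% were past 2-fold higher and 4.63% lower. PBX3 stood at 6.02, 22.5 and 14.96 CPM in LNCaP-ENZ168 and in the parental and treated VCaP cells, and PKNOX1 at 34.4, 23.2 and 16.6 CPM. Between LNCaP-ENZ168 and VCaP-ENZ48, 4 of 10 tested cofactors were past 2-fold higher and 2 lower, PBX3 among the latter. These counts stand beside 32.1% and 18.9% of all genes. TMM scaling left 2 higher and 2 lower of 8, beside 17.8% and 24.9% of all genes. MEIS1 and MEIS2, partners of HOX proteins named after their values were seen, had at most 15 UMIs in any library.

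Of 29 regulators of HOX clusters listed, 25 were tested within VCaP, and 3 were past 2-fold higher in VCaP-ENZ48 (RING1, PHC1 and RXRB) and 1 lower (GMNN). Of all genes, 12.8% were past 2-fold higher and 4.63% lower, so these counts were near the background. GMNN, which encodes geminin, an inhibitor of replication licensing, stood at 188 CPM in VCaP parental and 44.5 CPM in VCaP-ENZ48, beside the lower share of S and G2M phase UMIs given above. RING1, a catalytic subunit of Polycomb repressive complex 1, stood at 9.17 and 20.8 CPM. Between the lines, 7 of 26 were past 2-fold higher in LNCaP-ENZ168 and 2 lower, shares no larger than the 32.1% and 18.9% of all genes. TMM scaling, tried for these lists after their values were seen, left 3 higher and 3 lower, and within VCaP 1 higher (PHC1) and 1 lower (GMNN). Under TMM, 17.8% of all genes were past 2-fold higher and 24.9% lower between the lines, and 8.60% and 8.47% within VCaP. CBX6, a Polycomb chromodomain gene, stood at 63.4 CPM in LNCaP-ENZ168 against 22.2 and 25.8 CPM in VCaP. ASH2L, a Trithorax-type subunit, stood at 66.5 against 29.4 and 25.2 CPM. The median log2 ratio of the list was 0.15 within VCaP and 0.68 between the lines, beside 0.17 and 0.50 for all genes.

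Genes flanking the clusters gave a view of their surroundings. Within VCaP, 0 of 8 tested were past 2-fold in either direction, where 12.8% of all genes were higher and 4.63% lower, but their median log2 ratio was -0.49 against 0.17 for all genes. With TMM scaling, SKAP2, CBX5, LNPK and MTX2 were past 2-fold lower, 4 of 9 tested, where 8.47% of all genes were. Between the lines, 3 of 8 were past 2-fold higher in LNCaP-ENZ168, SKAP2, SNX11 and CBX5, near the 32.1% of all genes. With TMM scaling SKAP2 alone was, beside 17.8% of all genes. SKAP2, next to the anterior end of HOXA, stood at 219 CPM in LNCaP-ENZ168, 25.3 CPM in VCaP parental and 13.8 CPM in VCaP-ENZ48. It was highest in the library where HOXA was lowest. Within VCaP both SKAP2 and HOXA were lower in VCaP-ENZ48, HOXA at 232 CPM against 273 CPM in VCaP parental. EVX1, beyond the posterior end of HOXA and named after its values were seen, had 0, 8 and 22 UMIs. Next to HOXC, SMUG1 stood at 56.5, 44.1 and 39.2 CPM, CBX5 at 139.7, 123 and 61.9 CPM and HNRNPA1 at 359, 433 and 480 CPM. Next to HOXD, LNPK stood at 36.7, 44.9 and 24.5 CPM and MTX2 at 91.1, 109 and 58.4 CPM, while HOXD itself was at 0 UMIs in LNCaP-ENZ168.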

How the data were processed

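Drop-seq libraries of LNCaP-ENZ168, VCaP parental and VCaP-ENZ48 were used, with 1 library each. The authors aligned reads to GRCh38 with STAR 2.7.3a and counted them with Drop-seq tools 2.3.0 and Picard 2.18.22 against Gencode 33, expecting 1000 cells. The files as deposited hold UMI counts of each gene and barcode, not normalised, and no cell filter is stated. A gene without a row was counted as 0. Barcodes entered with 300 genes or more, 500 UMIs or more and no more than 25% of UMIs from mitochondrial genes, and doublets were not removed. UMIs were summed over cells and divided by the library total (CPM), and ratios are log2 of CPM + 1, while folds are ratios of CPM. A gene entered a count when its mean over both libraries reached 1 CPM, and it was past the fold at 2-fold. Intervals are exact (Poisson for a level, conditional binomial for a ratio, Clopper-Pearson for a share). An interval of a ratio refers to the counts without the added 1 CPM. Cells were thinned to 2000 UMIs for shares of cells.

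Members of at least 5 CPM in a library were given in every library, members with UMIs in 1 line were named, and other members were given as counts or ranges. Related genes were named at 20 CPM in any library or past 4-fold with a mean of 5 CPM. Members and lists were chosen with earlier results of these data known. Coordinates are from Gencode 44 on GRCh38, and promoter windows from RefSeq. S and G2M phase genes, 97 found, came from Seurat 5.3.0, and TMM factors from edgeR 4.0.16. The computations used Python 3.11.15, scipy 1.17.1 and R 4.3.3, and were tested on simulated data. Alternatives changed the cells, the scaling, the added CPM, the minimum, the fold and the thinning. The gene CDX1 and some other listed genes were not analysed here, and some genes of the clusters and lists are not reported here by name.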

Additional observations from a re-analysis of the deposited data

How the results depend on the processing

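No paired analysis was possible because every condition was measured in 1 library, and no library was left out for the same reason. Counting error is the only error measured, and members with few UMIs, all of HOXB and HOXD among them, are limited by depth. The cause of the shifts below was not tested unless the setting itself changes the number of cells or genes.

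No cluster ratio whose interval excludes 0 changed sign under any alternative. The HOXA ratio of VCaP-ENZ48 over VCaP parental moved from -0.23 to -0.32 in the less cycling cells, -0.32 with each cell weighted equally, -0.11 without mitochondrial and ribosomal protein genes in the total, -0.52 with TMM and -0.46 with median-of-ratios scaling. The HOXC ratio of the VCaP libraries moved to -0.15 with TMM, and the HOXD ratio to 1.07 with only barcodes ending in a base, which left 138 and 127 VCaP cells. For LNCaP-ENZ168 over VCaP-ENZ48, TMM gave -2.94 for HOXA, 0.93 for HOXB and 1.49 for HOXC, median-of-ratios scaling gave -2.90, 0.94 and 1.52, and the total without mitochondrial and ribosomal protein genes gave -2.68 for HOXA and 1.78 for HOXC. An added 5 CPM gave 0.75 for HOXB, 1.82 for HOXC and -0.75 for HOXD.

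The count of members past 2-fold higher in VCaP-ENZ48, 1 as reported, was 0 in the less cycling cells, with TMM, with median-of-ratios scaling, with an added 5 CPM and at 4-fold. It was 2 with equal cell weights, without mitochondrial and ribosomal protein genes and with an added 0.1 CPM, 3 with barcodes ending in a base, and 4 at 1.5-fold, where 1 member was lower. Between LNCaP-ENZ168 and VCaP-ENZ48, the 4 higher and 9 lower members became 2 and 5 with an added 5 CPM, 2 and 4 at a mean of 10 CPM, and 2 and 3 at 4-fold, and 8 were higher without a minimum.

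Shares of cells depend on depth by construction. Thinned to 1000 UMIs, HOXA shares were 4.98%, 24.7% and 19.2% in LNCaP-ENZ168 and in the parental and treated VCaP cells, HOXC shares 9.43% and 1.00% in the first pair, and the HOXB share 0.742% in LNCaP-ENZ168. Unthinned, HOXA shares were 21.8%, 96.6% and 76.7%, HOXB shares 4.24%, 2.71% and 2.96%, HOXC shares 39.1%, 27.1% and 21.96%, and HOXD shares 4.91% and 4.86% in the VCaP libraries. A second thinning gave 0.100% for HOXB in VCaP parental. Of the other values, 218 of the member levels recomputed stayed within their counting interval and 46 moved outside it.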
